A study of Arabidopsis thaliana with 12 samples.

Results

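Roots of the nitrate transporter mutant chl1-5 were compared with roots of wild-type Arabidopsis thaliana of the Columbia ecotype before any nitrate was given, the sampling point called T0. The comparison used the 3 chl1-5 arrays and the 3 wild-type arrays labelled T0, 6 of the 12 arrays of the study, chosen by their titles and paired by the replicate number in them. The other 6 arrays held the same genotypes after 0.5 h in 25 mM KNO3 (T0.5), and served as a second measurement of each genotype difference under another treatment. The T0.5 medium is labelled as free of ammonium succinate, so added nitrate and removed ammonium succinate cannot be told apart. The words "after nitrate" and "with nitrate" below stand for this whole change of medium. All plants were 10 days old, had grown at pH 6.5 with 12.5 mM ammonium succinate as the sole nitrogen source, and had spent 3 h at pH 5.5 in the same nitrogen source. Roots from 9 vessels, about 900 seedlings, were pooled for each replicate, each replicate was a separate experiment, and wild-type and chl1-5 seeds shared a mesh in separate areas. The mutant was a single line, with no second allele and no complemented line among the arrays.

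CHL1, also called NRT1.1 or NPF6.3, is a plasma membrane nitrate transporter of the plant NRT1/PTR family. It carries nitrate at both low and high external concentrations, and it also acts as a nitrate sensor that sets the size of the rapid transcriptional response to nitrate. The allele chl1-5 is a deletion mutant, selected for resistance to chlorate, a toxic nitrate analogue. A comparison before nitrate shows how far the root transcriptomes already differed when the transporter had no added nitrate to carry or to sense.

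Before nitrate the transcriptomes of both genotypes were close, and 4 probe sets differed. Of 14291 probe sets tested, 1 was higher and 3 were lower in chl1-5 at an adjusted p under 0.05 (limma, Benjamini-Hochberg), which is 0.028% of those tested (0.007% higher and 0.021% lower). An unadjusted p under 0.05 was reached by 331 probe sets, 2.32% of those tested. The named genes among the 4 were QQS, which was higher, and ATKDSA2, which was lower. The others were probe sets 264348_at and 264371_at, which have no gene name in the annotation used here. Values below are MAS5 signals, linear array intensities scaled by the authors to a common mean, and differences are log2 of chl1-5 over wild type with their standard error.

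QQS (AT3G30720) is a small orphan gene known for its effect on leaf starch content. Its signal in wild type was 20.7, 48.1 and 44.9 in replicates 1, 2 and 3, and in chl1-5 it was 238.1, 250.0 and 328.3. Every chl1-5 array lay above every wild-type array, and the wild-type signals were dim, meaning under the 40th percentile of their array on all 3 arrays. The log2 difference was 2.92 ± 0.35 (SE, n = 3 pairs; adjusted p = 0.00985). Taking the 40th percentile of each wild-type array as the lowest readable level, the transcript was on average at least 2.47-fold higher in chl1-5. This bound and the other "at least" folds below are geometric means over the 3 pairs, so a single pair can lie under them. The paired differences were 3.52, 2.38 and 2.87. After nitrate the wild-type arrays read 31.3, 63.1 and 20.8 and the chl1-5 arrays read 217.3, 253.8 and 225.5, a log2 difference of 2.75 (adjusted p = 0.00266). QQS was thus higher in chl1-5 on both sets of arrays, with no overlap in either.

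ATKDSA2 (AT1G16340) encodes an enzyme that makes the phosphorylated form of KDO, a sugar acid found in the pectin rhamnogalacturonan II of the cell wall. Its signal in wild type was 296.0, 304.9 and 317.1, and in chl1-5 it was 53.3, 10.9 and 39.7. The groups did not overlap, and all 3 chl1-5 readings were dim. The log2 difference was -3.43 ± 0.41 (SE, n = 3 pairs; adjusted p = 0.00985), and the transcript was at least 2.91-fold lower in chl1-5. The pairs gave -2.47, -4.81 and -3.0. At T0.5 the wild-type arrays read 313.5, 306.2 and 292.5 against 25.7, 26.7 and 21.4 in chl1-5, a log2 difference of -3.63 (adjusted p = 0.00144). The next enzyme of KDO use, the CMP-KDO synthetase CKS (AT1G53000), differed by -0.11 ± 0.098 (SE) at T0 and did not pass the test.

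The 2 unnamed probe sets had the widest differences. Probe set 264348_at read 1673.5, 1886.5 and 1554.1 in wild type and 7.2, 48.7 and 24.5 in chl1-5, where all 3 readings were dim. It differed by -6.37 ± 0.47 on the log2 scale (SE, n = 3 pairs; adjusted p = 0.000213), and at least 16.2-fold lower. At T0.5 wild type read 7636.5, 7123.5 and 5492.3 against 93.8, 229.4 and 53.6 in chl1-5, a log2 difference of -5.99. Wild-type readings of this probe set were higher at T0.5 than at T0 on every array. In chl1-5, 2 of the 3 readings at T0.5 were dim as well, so the size of its genotype difference is a bound at both times.

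Probe set 264371_at read 4051.1, 4933.9 and 3007.5 in wild type and 30.7, 121.3 and 56.6 in chl1-5, 2 of these 3 readings being dim. It was at least 36.2-fold lower in chl1-5, with a fitted log2 difference of -6.04 ± 0.47 (SE, n = 3 pairs; adjusted p = 0.000213). At T0.5 its log2 difference was -6.22. Both unnamed probe sets stood far below every wild-type array in all 6 chl1-5 arrays.

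**Figure D1:**
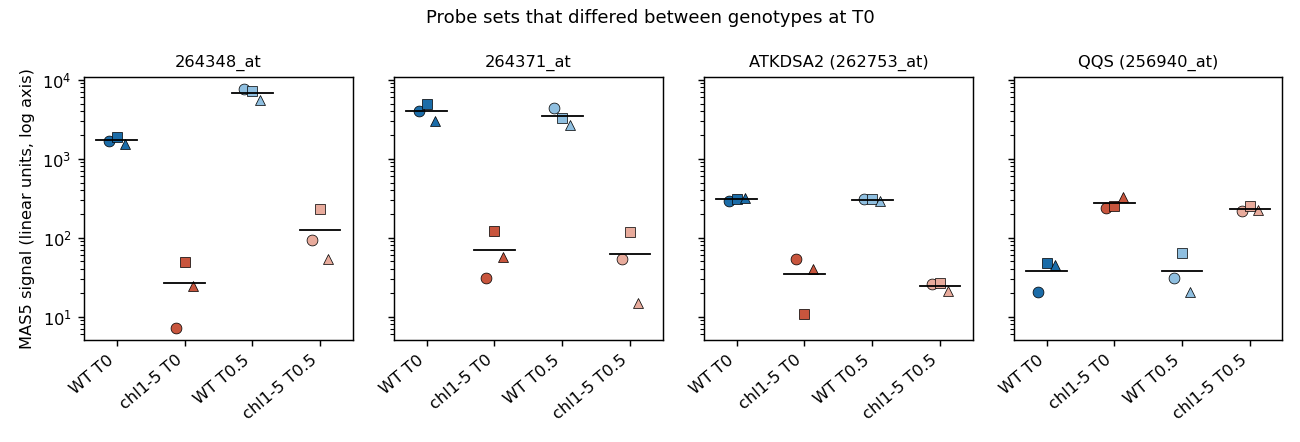
MAS5 signal (linear units on a log axis) of the 4 probe sets that differed at T0, on each of the 12 arrays; circles, squares and triangles are replicates 1, 2 and 3, and bars are group means. QQS is higher and the other 3 are lower in chl1-5 at both T0 and T0.5, with no overlap between genotypes.

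QQS and ATKDSA2 each kept its call in most but not all settings, and both calls rest on dim readings in 1 genotype. Without a replicate block in a fit of the T0 arrays alone, neither passed and 2 probe sets remained, 264348_at and 264371_at. QQS did not pass without wild-type replicate 1 or 2, without chl1-5 replicate 1 or 3, or without any 1 whole replicate, and ATKDSA2 did not pass without any 1 of the wild-type arrays or without the whole of replicate 3. All 4 probe sets were also called at T0.5 with the same sign, on separate arrays with a shared estimate of the spread.

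No neighbour of these loci with a named probe set passed the test. Probe sets without a gene name, 264348_at and 264371_at among them, could not be placed on the chromosomes, so unnamed neighbours were not assessed. Beside CHL1 (AT1G12110), AT1G12080 differed by -0.13 ± 0.16 (SE) and AT1G12120 by -0.14 ± 0.13, and neither passed. AT1G12120 read 1168.5, 1095.5 and 1142.8 in wild type and 953.0, 979.5 and 1163.1 in chl1-5, so the genotypes overlapped. The other named neighbours of CHL1, AT1G12070, AT1G12100, AT1G12130 and AT1G12150, were dim on all 6 T0 arrays and were not tested. CHL1 itself had no named probe set in the annotation used here, so its signal could not be picked out. Whether 264348_at or 264371_at, both nearly absent in chl1-5, reads CHL1 or a gene beside it could not be checked. Beside ATKDSA2, AT1G16310 differed by -0.20 ± 0.19 and AT1G16350 by -0.19 ± 0.085 (SE, unadjusted p = 0.0454, adjusted p = 1.00), while AT1G16290 and AT1G16360 were dim. The named neighbours of QQS, AT3G30670, AT3G30710, AT3G30730 and AT3G30740, were dim in both genotypes.

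Outside the 4 called probe sets the genotype difference was small and uneven between pairs. The median log2 difference over the probe sets tested was -0.01, the median absolute difference was 0.08, and 99% of absolute differences were under 0.44. The median standard error was 0.13. The 95% interval of the difference lay wholly within 2-fold either way for 14023 probe sets, 98.1% of those tested, and within 1.5-fold for 11989, or 83.9%. The interval reached past 2-fold for the other 268, the 4 called included, and for the uncalled among these a difference of 2-fold or more lies inside the interval.

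**Figure D2:**
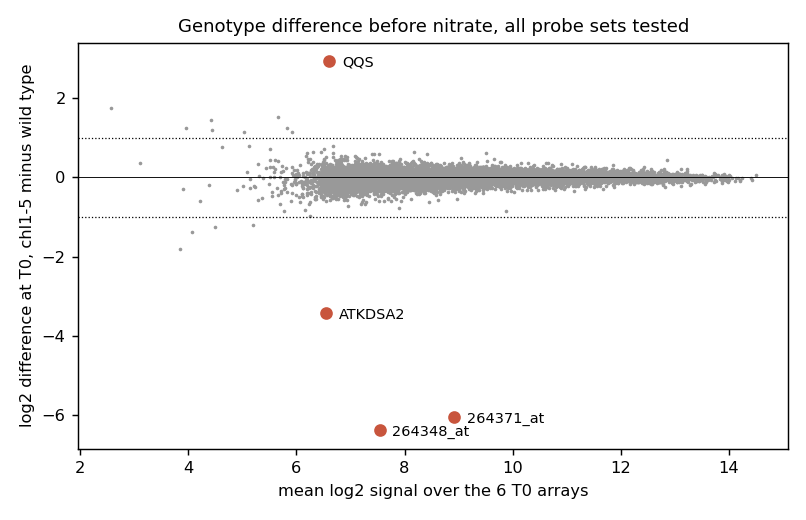
Log2 difference between chl1-5 and wild type at T0 (vertical axis) against the mean log2 signal over the 6 T0 arrays (horizontal axis), 1 point per probe set tested; dotted lines mark 2-fold. The 4 called probe sets are labelled, and the other probe sets past 2-fold lie at low signal.

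A fitted difference of 2-fold or more was found for 16 probe sets, the 4 called and 12 that were not. Of these 12, 10 were dim on all 6 T0 arrays. The remaining pair, named after their values were seen, were the cytochrome P450 gene CYP71B22 and AT3G24510. CYP71B22 read 59.1, 100.7 and 8.6 in wild type and 117.8, 121.3 and 46.3 in chl1-5, so the genotypes overlapped (log2 difference 1.23 ± 0.47, SE; adjusted p = 1.00). AT3G24510 read 106.6, 146.4 and 4.4 against 160.6, 156.7 and 28.6, and overlapped as well. In both genes replicate 3 was the lowest of each genotype.

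The T0 arrays of 1 genotype lay wholly above those of the other for 742 probe sets, 5.19% of those tested, of which 459 (3.21%) were lower and 283 (1.98%) higher in chl1-5. The sign was the same in all 3 pairs for 3569 probe sets, 25.0%. Across probe sets, and leaving out the 4 called, the differences of one replicate pair correlated with those of another at r = -0.05 to 0.02 (3 combinations of pairs, 14287 probe sets). At T0.5 the same correlations, without the same 4 probe sets, were 0.12 to 0.20. The 56 other probe sets called at T0.5 were kept in them, so the 2 ranges are not on like terms. These are descriptions over probe sets that share arrays, and probe sets are not independent.

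The replicate experiment accounted for more of the spread at T0 than the genotype did. Of the summed squared deviations over all probe sets tested, 68.2% lay between replicate numbers, 12.6% between genotypes and 19.3% in the rest. These parts have unequal degrees of freedom, and their mean squares were 0.113, 0.042 and 0.032 in that order. Without the 4 called probe sets the genotype share was 9.81%, and the rest, which has more degrees of freedom, held 19.8%. The mean squares above include these 4 probe sets and were not taken without them. Deviations of a wild-type array from its group mean correlated with those of the chl1-5 array of the same number at r = 0.545 to 0.573. With arrays of another number the correlation was r = -0.331 to -0.244. Deviations cancel out within each genotype by construction, so these negative values follow from the positive ones and are not a separate reading.

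Genes with the widest spread between replicates were chosen after their values were seen, by replicate means taken over both genotypes, so that agreement between the genotypes follows from the choice and no test is given. AT5G61290 read 418.6, 492.5 and 2614.7 in wild type and 397.7, 390.2 and 2719.4 in chl1-5. Replicate 3 was high in both genotypes, and the genotype difference was -0.12. The peroxidase gene PRX71 (AT5G64120) read 6675.9, 3440.7 and 1311.0 in wild type and 7329.4, 3868.4 and 1461.4 in chl1-5. It was highest in replicate 1 and lowest in replicate 3 in both, with a genotype difference of 0.15. AT5G51440 was high in replicate 1 only, at 1743.6, 386.9 and 521.4 in wild type and 1534.6, 381.6 and 599.4 in chl1-5.

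**Figure D3:**
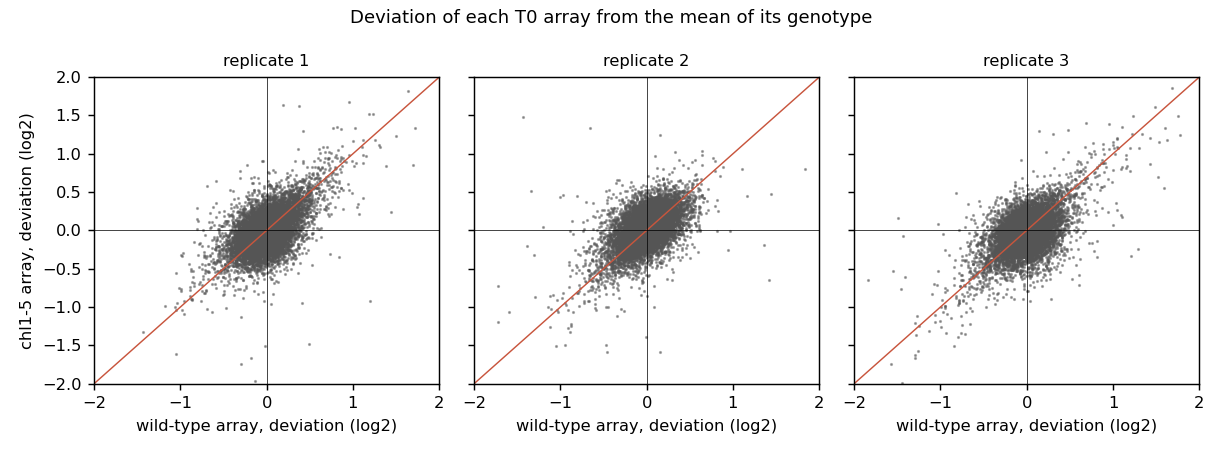
Deviation of each T0 array from the mean of its genotype (log2), chl1-5 (vertical) against wild type (horizontal), 1 panel per replicate number and 1 point per probe set tested; the line marks equal deviation. Points spread along the line in every panel (r = 0.573, 0.545 and 0.564); 21 probe sets fall outside the axes.

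Nitrate transporters and their relatives (NRT1/PTR, NRT2 and CLC names) were compared first, since CHL1 is a nitrate transporter of the NRT1/PTR family. The list held 12 named genes, and none of the 9 tested was called, against 0.028% of all probe sets. Of the 9, 7 were lower and 2 higher in chl1-5, the median log2 difference was -0.14, and the median over all probe sets was -0.01. The pairs were uneven, with list medians of 0.01, -0.19 and -0.40. NPF6.2, a nitrate transporter also called NRT1.4 and known from leaf petioles, read 393.5, 194.5 and 228.5 in wild type and 297.5, 170.2 and 166.0 in chl1-5. It was lower in each chl1-5 array than in its wild-type partner, while the groups overlapped (-0.35 ± 0.13, SE; unadjusted p = 0.0195, adjusted p = 1.00). GTR2, a glucosinolate transporter of roots and seeds, read 3740.3, 3892.8 and 4349.4 in wild type and 3646.1, 3676.3 and 3237.2 in chl1-5. Its arrays did not overlap, at a difference of -0.18 ± 0.085.

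Among the rest of the list, the high-affinity nitrate transporter NRT2.5, from the NRT2 names, differed by 0.09 and the nitrate transporter NPF6.4 by 0.03. The other glucosinolate transporter, GTR1, differed by -0.04. For 8 of the 9 tested genes the 95% interval lay within 2-fold, and the exception was NPF4.4 at -0.54, whose interval ran from -1.11 to 0.03. NPF4.1, NPF4.2 and NPF4.5 were too dim to be tested. The genes of nitrate reduction, ammonium uptake and assimilation, the nitrate response regulators and the pentose phosphate pathway had no named probe set in the annotation used. They could not be picked out here.

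QQS was the 1 call among the sulfur and carbon lists. In sulfate uptake and assimilation, 4 genes were tested and none was called, with a median of 0.02. The 2 with the lowest unadjusted p were OASA2 at 0.20 and the sulfite reductase SIR at -0.09, and the ATP sulfurylase APS3 differed by 0.03. In starch metabolism 4 genes were tested, QQS among them. The starch-degrading enzymes PWD and DPE1 differed by 0.07 and -0.17, and the branching enzyme SBE2.2 by -0.09. Of the SWEET and sucrose transporters 7 were tested and none was called (median 0.02), and the vacuolar fructose transporter SWEET17 differed by 0.08. AKINBETA1, a subunit of the energy-sensing SnRK1 kinase, differed by 0.05 and the transcription factor gene BZIP53 by -0.01.

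No expansin or xyloglucan endotransglucosylase with a named probe set passed, and cell wall genes outside these lists were not gathered. Of 12 expansins tested, which loosen the wall, 8 were lower and 4 higher, with a median of -0.06. EXPB3 read 1866.6, 2717.0 and 1499.9 in wild type and 2358.2, 3235.7 and 1963.5 in chl1-5. Each chl1-5 array was above its partner, but the groups overlapped (0.33 ± 0.13, SE; unadjusted p = 0.0305, adjusted p = 1.00). Of 8 xyloglucan endotransglucosylases, which cut and rejoin wall xyloglucan, XTH32 was the 1 with an unadjusted p under 0.05, at 0.32 ± 0.11.

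Families of secondary metabolism and detoxification, read by their named probe sets, held no call. Of 28 UDP-glucosyltransferases tested, the median was -0.02 and all 28 intervals lay within 2-fold. UGT76C1, which glucosylates cytokinins, differed by 0.33 and UGT87A2, known from flowering time, by -0.36. Of 12 cytochrome P450s the median was 0.11, and of 11 glutathione transferases it was 0.06. Among regulators, 6 WRKY factors had a median of 0.06, the clock gene GI differed by 0.10, the auxin response repressor IAA18 by 0.11, and the iron deficiency regulator PYE by -0.16. None of these was called.

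Genes of touch and early stress were the least well bounded. None of the 5 tested was called, the median was -0.15, and the 95% interval lay within 2-fold for 2 of them. The calmodulin-like gene CML39 read 250.2, 334.3 and 249.4 in wild type and 220.5, 179.7 and 170.7 in chl1-5. The T0 arrays did not overlap, but the difference was -0.54 ± 0.43 (SE) with an interval from -1.49 to 0.40, in a fit whose spread comes from all 12 arrays.

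**Figure D4:**
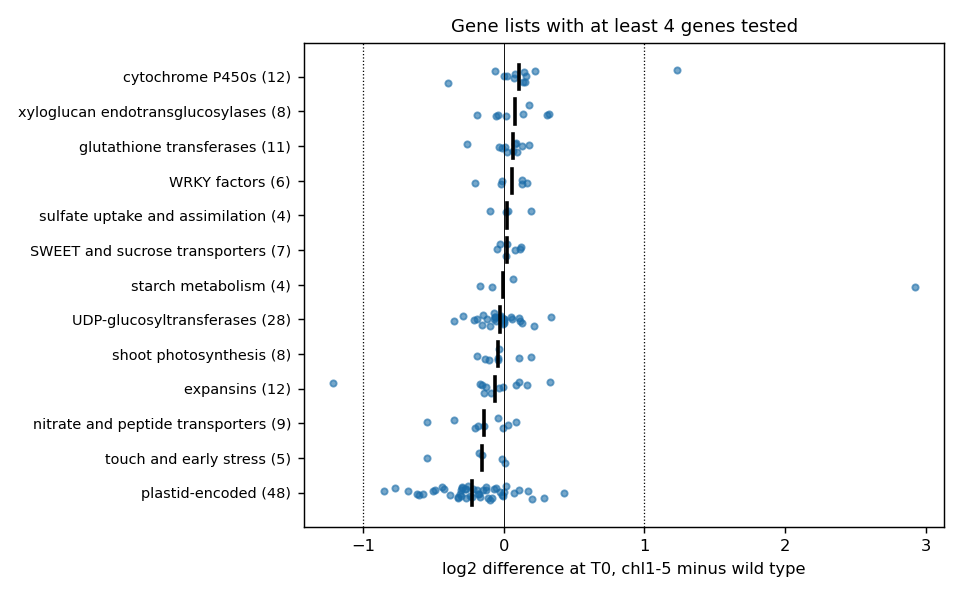
Log2 difference between chl1-5 and wild type at T0 for the members of each gene list with at least 4 genes tested (number tested in brackets); points are genes, short bars are list medians, and dotted lines mark 2-fold. List medians lie between -0.22 and 0.11, and the point far to the right is QQS.

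Plastid-encoded transcripts were the list whose median lay farthest from 0 among those with at least 4 genes tested. None of 48 was called, 41 were lower and 7 higher in chl1-5, and the median was -0.22 against -0.01 over all probe sets. An unadjusted p under 0.05 was reached by 6 of the 48, against 2.32% of all probe sets, and all 6 were lower. The list medians of the pairs were -0.28, -0.10 and -0.23. At T0.5 the list median was 0.05, and the change of the list with nitrate was not tested. Plastid transcripts come from a shared genome and long joint transcripts, so these genes are not independent readings. In whole roots, fewer cells or plastids with a transcript and less of it per cell cannot be told apart.

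ndhD, a subunit of the plastid NDH complex, read 191.7, 185.9 and 201.0 in wild type and 120.6, 148.8 and 111.3 in chl1-5, with no overlap (-0.61 ± 0.21, SE; unadjusted p = 0.0138, adjusted p = 1.00). atpA, a subunit of the plastid ATP synthase, read 225.3, 433.6 and 305.9 in wild type and 145.7, 237.0 and 172.5 in chl1-5. Each chl1-5 array was lower than its partner, with overlap between the groups (-0.78 ± 0.23, SE; unadjusted p = 0.00546, adjusted p = 1.00). At T0.5 atpA differed by 0.23 and ndhD by 0.16. clpP, a plastid protease subunit, differed by -0.85, the acetyl-CoA carboxylase subunit accD by -0.68, the ribosomal protein gene rps2 by -0.60 and the photosystem II gene psbE by -0.33.

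The median level over the 48 plastid genes overlapped between the genotypes. On the log2 scale it was 9.15, 8.86 and 8.57 in wild type and 8.99, 8.98 and 8.43 in chl1-5. The 3′ over 5′ signal of the array's GAPDH controls is a reading of RNA integrity. It was 0.972, 0.839 and 0.943 in wild type and 0.988, 1.05 and 1.08 in chl1-5, so that every chl1-5 array was higher. A second pair of GAPDH controls gave 0.860, 1.14 and 1.12 in wild type and 0.971, 1.22 and 1.24 in chl1-5, higher in chl1-5 in all 3 pairs with overlap between the groups. The ubiquitin ratio was 1.11, 1.07 and 1.13 in wild type and 1.04, 0.945 and 1.15 in chl1-5, and the actin ratio was 1.80, 1.91 and 1.80 against 1.86, 1.81 and 1.77, each lower in chl1-5 in 2 of 3 pairs. The part of RNA integrity in the plastid differences was not tested.

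Nuclear genes of photosynthesis were read in roots as a check on shoot material, and their signals did not part the genotypes. None of 8 tested was called, with a median of -0.04, and photosystem II genes PSBY and PSBW differed by -0.19 and 0.19. RCA, the Rubisco activase and the 1 of 18 shoot markers with a named probe set, read 571.2, 610.7 and 697.8 in wild type and 636.5, 538.9 and 651.4 in chl1-5. These readings lay above the array medians of 184.9 to 195.35, and the presence of shoot material was not tested. Of 11 root hair and epidermis markers, EXPA7 and EXPA18 were named and tested, and they differed by 0.00 and -0.13. Their summed signal was 2207 to 2513 in wild type and 2180 to 2382 in chl1-5, so root hair transcripts were read in both genotypes. The make-up of the tissue beyond these genes was not tested. The listed markers of endodermis, stele and root cap had no named probe set in the annotation used, so they could not be read.

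Beyond the 4 calls, the named genes with the smallest unadjusted p are given as values that did not pass (adjusted p = 1.00 for each). Higher in chl1-5 were 9 genes, by 0.26 to 0.80 on the log2 scale. AT3G47010 read 225.8, 282.4 and 342.2 in wild type and 379.0, 389.9 and 495.9 in chl1-5, without overlap (0.58 ± 0.13, SE; unadjusted p = 8.80e-04). Its difference at T0.5 was 0.24. AT5G27280 differed by 0.36 at T0 and 0.38 at T0.5. The others were AT1G09520, AT1G75180, AT3G19790, AT3G57160, AT4G22160 and AT4G29270, which differed by at most 0.06 in size at T0.5, and AT1G49000.

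AT1G49000 passed the test for a change of the genotype difference with nitrate. Before nitrate it read 75.2, 62.1 and 101.5 in wild type, dim on all 3 arrays, and 118.4, 136.8 and 153.1 in chl1-5, at least 1.24-fold higher against the dim wild-type readings (fitted difference 0.80 ± 0.20, SE; adjusted p = 1.00). After nitrate it read 247.1, 187.7 and 239.6 in wild type and 91.1, 86.7 and 165.3 in chl1-5, 2 of these being dim (-1.03 ± 0.20, SE; adjusted p = 0.0531). Neither genotype difference passed on its own, and the fitted change between them did, at -1.83 ± 0.28 (SE; adjusted p = 0.0330), a size that rests partly on dim readings.

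Lower in chl1-5 and not called were 9 genes, by -0.30 to -0.78. AT4G17310 read 158.3, 165.2 and 157.7 in wild type and 108.1, 94.2 and 88.8 in chl1-5, without overlap (-0.73 ± 0.17, SE; unadjusted p = 0.00132), and differed by -0.07 at T0.5. AT4G18260 read 247.4, 243.7 and 262.7 in wild type and 172.8, 154.4 and 188.2 in chl1-5, again without overlap, and differed by -0.55 at T0 and -0.39 at T0.5. ATC, a relative of the flowering repressor TFL1, read 1459.3, 2151.8 and 2506.7 in wild type and 1215.5, 1493.8 and 2167.5 in chl1-5. Each chl1-5 array was below its partner while the groups overlapped (-0.33 ± 0.090, SE). The others were atpA, AT1G27900, AT1G63660, AT3G15180, AT5G38610 and AT5G40020.

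More probe sets were called after nitrate than before it. At T0.5, 60 probe sets were called, 0.42% of those tested, 3 of them higher (0.021%) and 57 lower (0.399%) in chl1-5, and without the replicate block 32 were called (0.224%). Leaving out the whole of replicate 2 gave 6, and leaving out replicate 3 gave 25. All 4 probe sets called at T0 were among the 60. The 56 called at T0.5 and not at T0, of which 54 were lower, had a median difference of -0.87 at T0.5 and -0.01 at T0. Their T0 differences ran from -0.46 to 0.32, and for all 56 the 95% interval at T0 lay within 2-fold. An unadjusted p under 0.05 at T0 was reached by 4 of the 56, against 331 of all 14291 tested (2.32%). Both comparisons were fitted in 1 model with a shared estimate of the spread, so the T0.5 calls also depend on the T0 arrays.

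The change of the genotype difference with nitrate, tested directly, was called for 17 probe sets, 0.119% of those tested, all toward lower levels in chl1-5. Without the replicate block 5 were called (0.035%), and 3 without replicate 1. Without replicate 2 or replicate 3 limma called 0, with 502 and 436 probe sets at an unadjusted p under 0.05. Leaving out wild-type T0 replicate 2 or 3 gave 5 or 10, and leaving out chl1-5 T0 replicate 2 gave 9. Of the 17, 16 were also called at T0.5, and the differences of the 17 at T0 had a median of 0.06 and ran from -0.06 to 0.80. An unadjusted p under 0.05 at T0 was reached by 4 of the 17, against 2.32% of all probe sets. The T0 estimate is part of the change by which the 17 were chosen, so this count is not a separate reading. None of the 4 probe sets called at T0 was among the 17, and their change with nitrate could not be read, since 1 genotype was dim on at least 2 of 3 T0 arrays in each.

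**Figure D5:**
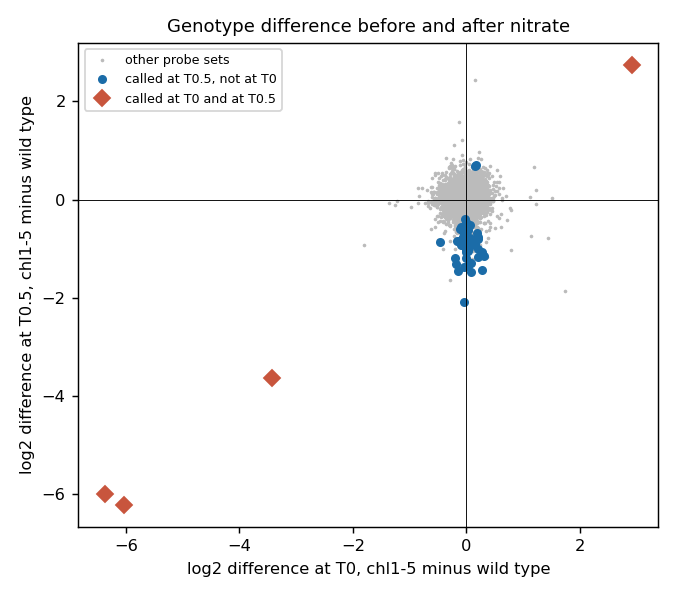
Log2 difference between chl1-5 and wild type at T0.5 (vertical) against that at T0 (horizontal), 1 point per probe set tested. The 4 probe sets called at T0 (diamonds) keep their sign at both times, and the 56 called at T0.5 alone (blue) lie near 0 on the T0 axis.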

How the data were processed

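Total RNA, 6 µg per array, was hybridised to one-colour Affymetrix ATH1 arrays. The deposited intensity values are linear signals, 1 per probe set, which the authors summarized with MAS5 according to the submitters' processing notes; its version is not given in the sources used here. Array medians at T0 were 184.9 to 195.35, no T0 value was listed at 0, and the number of arrays limits the precision. Of 22746 probe sets without controls, 13513 had 1 gene in the platform table, 503 had several and 8730 were not listed there; 13436 matched the TAIR10.1 gene table (13286 loci), which gave names and neighbours. Where probe sets shared a locus, the brightest stood for it.

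Signals were floored at 0.1 before log2, and a probe set entered the tests where 3 or more arrays read it no lower than their own 40th percentile. One limma model (limma 3.58.1, R 4.3.3; eBayes with trend) fitted 4 group means over all 12 arrays with the replicate number as a block, two-sided, and called an adjusted p under 0.05. The labels describe each replicate as a separate experiment with both genotypes on a mesh, and same-numbered arrays deviated together (r = 0.207 to 0.772 over all such pairs). With 3 pairs, an exact sign-flip permutation test of single values cannot go below 0.25, so it was not used. Named genes were the called probe sets, the smallest unadjusted p up to 10 per direction, the called or the 2 lowest-p members of each list, and neighbours of CHL1. The members and lists were chosen with earlier results of these data known, and lists, built from symbols and cleared of genes whose symbol belongs to another family, are described by counts and medians. Alternatives were other scalings, floors, a pseudocount, filters, eBayes without trend, no block, T0 arrays alone, and leaving out arrays.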

Additional observations from a re-analysis of the deposited data

Results flagged for a closer look

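A change of the genotype difference with nitrate was called in 7 named genes, among 17 probe sets. The 17 calls fell to 5 with no replicate block and to 0 without replicate 2 or replicate 3. Each of the 7 is given as the change in the log2 difference of chl1-5 over wild type from T0 to T0.5. It was tested as an interaction in limma with adjusted p over all probe sets.

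AT5G01740 had the widest change among the 7, at -2.05 (adjusted p = 0.00591), from -0.04 at T0 to -2.09 at T0.5. AT1G49000 changed by -1.83 (adjusted p = 0.0330), from 0.80 to -1.03. AT5G19970 changed by -1.72 (adjusted p = 7.53e-04), from 0.28 to -1.44. For AT1G49000 neither genotype difference passed on its own, and its T0 difference is against dim wild-type readings.

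AT1G80380 changed by -1.47 (adjusted p = 0.00724), from 0.32 to -1.16, and AT2G48080 by -1.38 (adjusted p = 0.0297), from 0.22 to -1.16. AT1G73920 changed by -1.03 (adjusted p = 0.0436), from 0.04 to -0.99, and AT3G16560 by -1.0 (adjusted p = 0.0388), from 0.20 to -0.80. In 6 of the 7 the T0 estimate was above 0, against 12 of all 17 called for the change and 6635 of the 14291 tested. The T0 estimate is subtracted in the change, so choosing by a negative change favours T0 estimates above 0. None of the 7 was called at T0.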

How the results depend on the processing

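The 4 calls at T0 were the same 4 probe sets under no replicate block, the T0 arrays alone with the block, median scaling, quantile normalization, a floor of 16, a pseudocount of 32, both other filters and eBayes without trend. The count was 2 for the T0 arrays alone with no replicate block, and 2 to 4 when each array or replicate was left out; 264348_at and 264371_at were called in all of these. List members called were 2, were 0 for the T0 arrays alone with no replicate block, and were 0 to 2 with an array or replicate left out. At T0.5 the count was 60, 32 with no replicate block, and 6 to 63 with an array or replicate left out, the lowest without replicate 2. The change with nitrate was called for 17 probe sets, 5 with no replicate block, 27 with a pseudocount of 32, 7 with eBayes without trend, and 0 to 12 with an array or replicate left out. The causes were not tested. No called direction reversed, and QQS and ATKDSA2 lost their calls 13 times in all with the sign kept. Of the named genes that were not called, 8 had a sign change in at least 1 setting (SWEET17, SWEET14, AKINBETA1, BZIP53, WES1, STZ, GI and AT1G12080), all with a T0 difference of at most 0.15 in size. Dim readings limit the folds of all 4 called probe sets, which are lower bounds.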
